A study of Homo sapiens with 18 samples.

Results

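Collagens are the main structural proteins of the extracellular matrix. The collagen genes described here are all the genes whose symbol has the form COL, a type number, A and a chain number in the probe set annotation of the array. The rule found 43 members among 18417 named genes, each represented by its brightest probe set with a single gene symbol. By the structure their proteins build, 11 are fibrillar, 9 form networks, 10 are fibril-associated collagens with interrupted helices (FACITs), 3 are transmembrane and 10 belong to other classes. These others are the beaded filaments of type VI, the anchoring fibrils of type VII, types XV and XVIII of basement membrane zones, and types XXVI and XXVIII.

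Every collagen molecule is a helix of 3 chains, which may be copies of one chain or products of different genes. Fibrillar collagens give connective tissue its tensile strength, and FACITs bind to the surface of those fibrils. Type IV networks form the scaffold of the basement membrane on which epithelia rest, type VII anchors that membrane to the tissue beneath, and type VI builds thin filaments between the basement membrane and the matrix. In the breast, the epithelium makes mostly basement membrane, and fibrillar collagen comes mainly from stromal fibroblasts. Cells that pass through epithelial-mesenchymal transition (EMT) lose epithelial junctions and take on features of such mesenchymal cells.

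Total RNA of 18 samples was measured on Affymetrix Human Gene 1.0 ST arrays, 3 arrays in each of 6 groups. Both lines come from human breast epithelium: HMLE was immortalised by adding telomerase and the SV40 early region, and MCF10A became immortal spontaneously. The HMLE groups carried a control vector, a Snail expression vector or a Twist expression vector, and the MCF10A groups carry the same labels. Snail, encoded by SNAI1, and Twist, encoded by TWIST1, are known as drivers of EMT that act on transcription. All groups were selected as stable clones, grown in DMEM/F12 with 10% FBS at 5% CO2 and 37 °C and collected in log phase. How many clones each group holds, and which promoter drives the inserts, is not given in the sources used here. Whether the 3 replicates of a group were separate cultures is not stated, so each p-value rests on a spread that may be only technical.

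The arrays had medians from 7.698 to 7.793 (log2). SNAI1 marked the Snail arrays, at 12.53 ± 0.01 against 7.39 ± 0.14 with vector in HMLE and at 12.49 ± 0.07 against 8.32 ± 0.14 in MCF10A (log2 mean ± SD, n = 3 for every group here and below). TWIST1 stood at 9.69 ± 0.01 with HMLE vector, 11.49 ± 0.14 with HMLE Twist and 10.81 ± 0.04 with HMLE Snail. It read 10.07 ± 0.09 with MCF10A vector, 10.30 ± 0.07 with MCF10A Snail and 10.99 ± 0.03 in the arrays labelled MCF10A Twist. The epithelial markers CDH1, EPCAM, DSP, KRT5, KRT14, CLDN7 and GRHL2 had array means between 12.02 and 12.07 in HMLE vector, 11.78 and 11.85 in MCF10A vector, and 11.31 and 11.38 in MCF10A Snail arrays. In HMLE Snail they lay between 7.69 and 7.76, in HMLE Twist between 6.99 and 7.06, and in the arrays labelled MCF10A Twist between 7.03 and 7.18. MCF10A lacks part of chromosome arm 9p that holds MTAP. This gene read 5.98 ± 0.36 with MCF10A vector and 6.02 ± 0.15 with MCF10A Snail, while HMLE groups ran from 9.83 ± 0.02 to 10.26 ± 0.04. In the arrays labelled MCF10A Twist it read 10.80 ± 0.03. These 3 arrays therefore go against their line label. They are called by that label throughout, and their collagens are set against both lines.

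Of the 43 collagens, 22 differed from the vector of their labelled line in at least 1 of 4 comparisons, or 51.2%, where 68.6% of all genes did. A difference of at least 2-fold was called for 13 of them, or 30.2% against 16.3% of all genes. A gene was called at a limma adjusted p under 0.05, and rose or fell is written only of genes that passed. All differences are log2 differences ± SE from a limma fit over all arrays. By type, the called members were 5 of 11 fibrillar, 8 of 9 network, 3 of 10 FACIT, 1 of 3 transmembrane and 5 of 10 other collagens. The 21 members with no call in these 4 comparisons differed from vector by -0.12 to 0.21. They were COL2A1, COL5A1, COL5A3, COL11A1, COL11A2 and COL24A1 of the fibrillar class, COL8A2 of the network class, and the FACITs COL9A1, COL9A2, COL9A3, COL19A1, COL20A1, COL21A1 and COL22A1. The others were the transmembrane COL23A1 and COL25A1, and COL6A5, COL6A6, COL15A1, COL18A1 and COL26A1. Their group means ran from 4.55 to 9.10, and 18 of the 21 stayed under 8.52, the median of all gene values, in every group. Of all 43 members 19 reached that median in at least 1 group. A value below it was not read as absence.

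**Figure D1:**
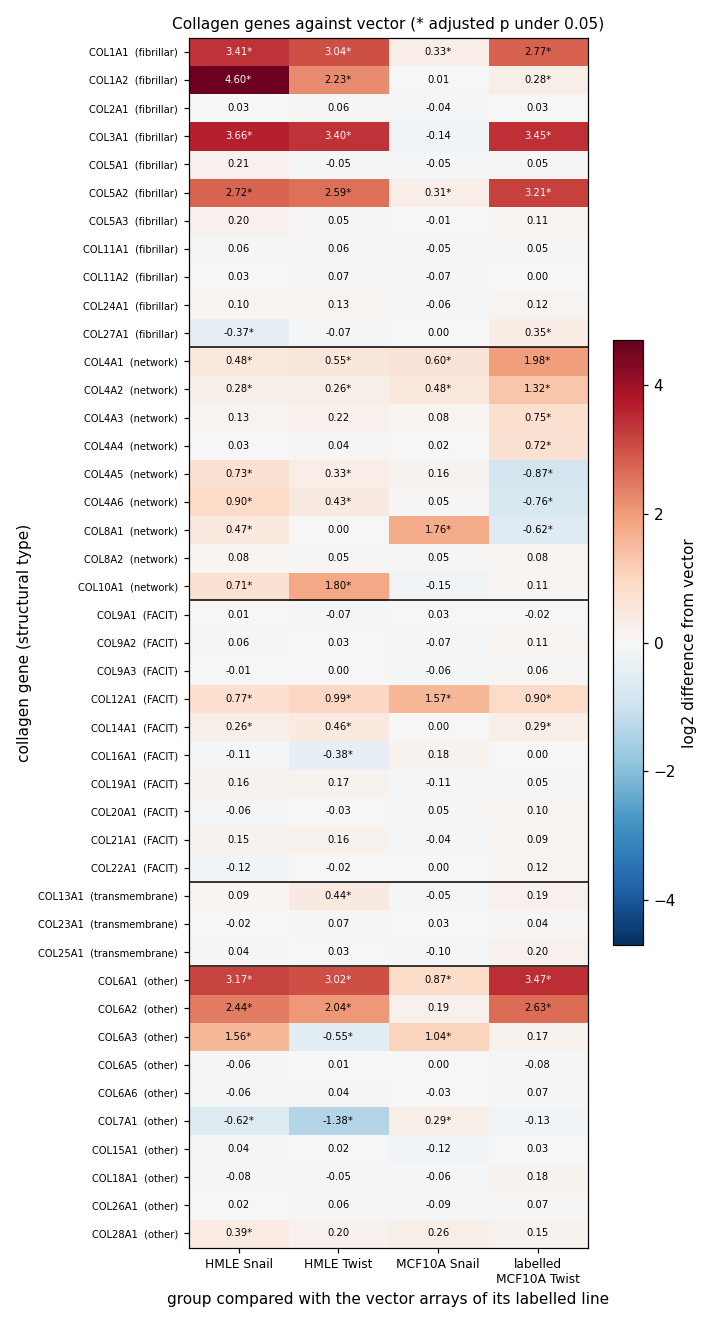
Log2 difference from the vector arrays of the labelled line for all 43 collagen genes (rows, by structural type) in 4 comparisons (columns), with an asterisk at an adjusted p under 0.05. Large rises sit in a few fibrillar genes and type VI genes of the HMLE Snail, HMLE Twist and labelled MCF10A Twist columns, up to 4.60 for COL1A2, while the MCF10A Snail column peaks at 1.76 for COL8A1.

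In HMLE cells Snail was followed by rises of 16 collagens and falls of 2. Together these are 41.9% of the collagens, where 47.7% of all genes were called. By direction, 37.2% of the collagens and 22.9% of all genes rose, and 4.65% and 24.8% fell. At least 2-fold rises were seen for 7 collagens, or 16.3%, against a background of 4.46%, and no collagen fell 2-fold, where 4.41% of all genes did. The median difference of the 43 collagens was 0.10, and that of all genes was -0.01, so the rises were concentrated in part of the family. In bulk RNA a larger share of expressing cells and more RNA per cell cannot be told apart. The mesenchymal markers VIM, CDH2, ZEB1, PRRX1, PDGFRB, THY1, DCN, LUM, FBN1 and FAP moved with the collagens. Of these 10 markers 9 rose and 1, FAP, fell, and their array means went from between 8.15 and 8.20 with vector to between 11.08 and 11.09 with Snail. Their part in the result was not tested.

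With Twist in HMLE 14 collagens rose and 3 fell, or 32.6% and 6.98%, where 23% of all genes rose and 20.7% fell, 43.7% in all. At least 2-fold rises numbered 7, or 16.3% against a background of 3.61%, and 1 collagen fell 2-fold, against 4.28% of all genes. The median difference was 0.06 against 0.02 for all genes. Of the 10 mesenchymal markers 9 rose and 1 fell, and they reached array means between 11.26 and 11.40. In MCF10A Snail was followed by rises of 9 collagens, and limma called no fall, nor was any collagen lower at an unadjusted p under 0.05 (0 of 43). That is 20.9%, where 10.7% of all genes rose and 12% fell, 22.7% in all. Of these 9, 3 rose at least 2-fold, or 6.98% against a background of 0.717%, and the median was 0.00 against -0.02. There 7 of the 10 mesenchymal markers rose, with array means between 9.25 and 9.31 against 8.29 to 8.42 with vector. Falls of at least 2-fold were seen for 1.07% of all genes in that comparison.

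The arrays labelled MCF10A Twist had 13 collagens above and 3 below MCF10A vector, or 30.2% and 6.98%, against 26.5% and 23.9% of all genes, so the share that rose lay near the background (50.4% of all genes were called in either direction). At least 2-fold rises again numbered 7, or 16.3% against 5.19%, and no collagen fell 2-fold, where 5.33% of all genes did. Set against HMLE vector instead, 13 were higher and 9 lower, where 25.2% and 24% of all genes passed, 49.2% in all. Of these, 5 were at least 2-fold higher, or 11.6% against a background of 4.03%, and 2 were 2-fold lower, against 4.97% of all genes. Their mesenchymal markers had array means between 10.93 and 11.02. Among other cell types, the 6 endothelial markers had array means from 6.80 to 7.21 over all groups. The 5 measured leukocyte markers, PTPRC, CD3E, CD14, CD68 and ITGAM, had array means from 7.33 to 8.04, highest with MCF10A vector. Single markers differed widely. CD68 had group means from 10.33 ± 0.13 to 12.52 ± 0.04. CD14 ran from 7.00 ± 0.22 with HMLE Snail to 11.67 ± 0.05 with MCF10A vector. Group means of CD3E and ITGAM lay between 6.23 and 7.06, and the defining leukocyte gene PTPRC stood between 4.59 ± 0.21 and 5.23 ± 0.17.

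Type I collagen, the chief fibril former of skin, bone and tendon, is made of chains from COL1A1 and COL1A2. In HMLE the COL1A1 arrays read 9.40, 9.36 and 9.47 with vector, 12.85, 12.81 and 12.80 with Snail, and 12.46, 12.43 and 12.46 with Twist. It rose by 3.41 ± 0.08 with Snail, or 10.6-fold (adjusted p = 1.8e-15), and by 3.04 ± 0.08 with Twist (adjusted p = 7.07e-15). Both HMLE factor groups lay far above vector with no overlap, and Snail lay slightly above Twist, by 0.37 ± 0.08 (adjusted p = 0.00181). In MCF10A COL1A1 ran from 8.73 to 9.10 with vector and read 9.11, 9.31 and 9.38 after Snail. This rise of 0.33 ± 0.08 (adjusted p = 0.00692) was lost when only the compared groups were fitted (adjusted p = 0.0678). Arrays labelled MCF10A Twist read 11.70, 11.76 and 11.68, which is 2.77 ± 0.08 above MCF10A vector and 2.30 ± 0.08 above HMLE vector (adjusted p = 1.89e-14 and 2.53e-13).

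COL1A2 rose by more than COL1A1 with Snail in HMLE and by less than COL1A1 with Twist. It read 8.17, 7.98 and 8.10 with HMLE vector, 12.71, 12.68 and 12.66 with Snail, and 10.31, 10.20 and 10.43 with Twist. The rise with Snail, 4.60 ± 0.08 or 24.2-fold, was the largest of any collagen in the 4 comparisons with vector (adjusted p = 2.58e-17). With Twist it rose by 2.23 ± 0.08 (adjusted p = 1.98e-13), and the Snail arrays stood above the Twist arrays by 2.37 ± 0.08, or 5.16-fold (adjusted p = 5.57e-13). In MCF10A it read 7.50, 7.49 and 7.68 with vector and 7.57, 7.50 and 7.61 with Snail, a difference of 0.01 ± 0.08 with overlapping groups (adjusted p = 0.964). Labelled MCF10A Twist arrays read 7.70, 7.87 and 7.92. They were 0.28 ± 0.08 above MCF10A vector (adjusted p = 0.00531), 0.25 below HMLE vector (difference -0.25 ± 0.08, adjusted p = 0.0104) and far below HMLE Twist (-2.48 ± 0.08, adjusted p = 2.2e-13). The small difference from HMLE vector was lost without HMLE vector replicate 1 (adjusted p = 0.0549) or without labelled MCF10A Twist replicate 1 (adjusted p = 0.0627). The labelled MCF10A Twist arrays thus held COL1A1 at a high level with COL1A2 near its vector level, while HMLE Snail arrays held both high. The gap between the chains' changes was not tested as such.

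COL3A1 encodes type III collagen, a molecule of identical chains found with type I in skin and vessels. It read 7.94, 7.86 and 8.04 with HMLE vector, 11.70, 11.51 and 11.60 with Snail, and 11.32, 11.37 and 11.36 with Twist. The rises were 3.66 ± 0.10 with Snail and 3.40 ± 0.10 with Twist (adjusted p = 1.09e-14 and 2.72e-14). In MCF10A it read 7.58, 7.94 and 8.15 with vector and 7.71, 7.77 and 7.78 with Snail, so the groups overlapped and the difference of -0.14 ± 0.10 was not called (adjusted p = 0.403). Without MCF10A vector replicate 1, the lowest array, the difference was -0.29 (adjusted p = 0.0104). The arrays labelled MCF10A Twist, at 11.36, 11.33 and 11.32, overlapped with HMLE Twist (difference -0.02 ± 0.10, adjusted p = 0.936) and stood 3.45 ± 0.10 above MCF10A vector and 3.39 ± 0.10 above HMLE vector.

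COL5A2 encodes a chain of type V collagen, which starts and regulates type I fibrils. It read 7.49, 7.37 and 7.41 with HMLE vector, 10.12, 10.15 and 10.16 with Snail, and 10.00, 9.94 and 10.11 with Twist, rises of 2.72 ± 0.08 and 2.59 ± 0.08 (adjusted p = 2.86e-14 and 5.32e-14). In MCF10A it read 6.59, 6.60 and 6.78 with vector and 7.16, 6.96 and 6.79 with Snail. That rise, 0.31 ± 0.08 (adjusted p = 0.00884), was lost without MCF10A Snail replicate 1 (adjusted p = 0.0525) and when only the compared groups were fitted (adjusted p = 0.0595). In the arrays labelled MCF10A Twist, at 9.93, 9.82 and 9.85, it lay 3.21 ± 0.08 above MCF10A vector and 2.44 ± 0.08 above HMLE vector. Its partner COL5A1 was not called against the vector of the labelled line, with means of 7.75 ± 0.13 in HMLE vector, 7.96 ± 0.11 with Snail and 7.70 ± 0.15 with Twist. Its Snail difference in HMLE was called with quantile normalization (0.23, adjusted p = 0.00805), with median centring (0.25, adjusted p = 0.0402) and without HMLE Snail replicate 3 (0.27, adjusted p = 0.043). In the labelled MCF10A Twist arrays COL5A1 had a mean of 7.43 ± 0.17, lower than HMLE vector (-0.32 ± 0.09, adjusted p = 0.00871), a call lost without labelled MCF10A Twist replicate 1 (-0.23, adjusted p = 0.0563). COL27A1, a fibrillar collagen of cartilage, was the remaining called member of the class. It fell with Snail in HMLE by 0.37 (difference -0.37 ± 0.09, adjusted p = 0.00344) and was higher by 0.35 ± 0.09 in the labelled MCF10A Twist arrays than in MCF10A vector (adjusted p = 0.00449). Against HMLE vector the same arrays were lower (-0.30 ± 0.09, adjusted p = 0.0131), so the direction turned with the line chosen as baseline, and that second call was lost without labelled MCF10A Twist replicate 1 (-0.23, adjusted p = 0.0735).

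**Figure D2:**
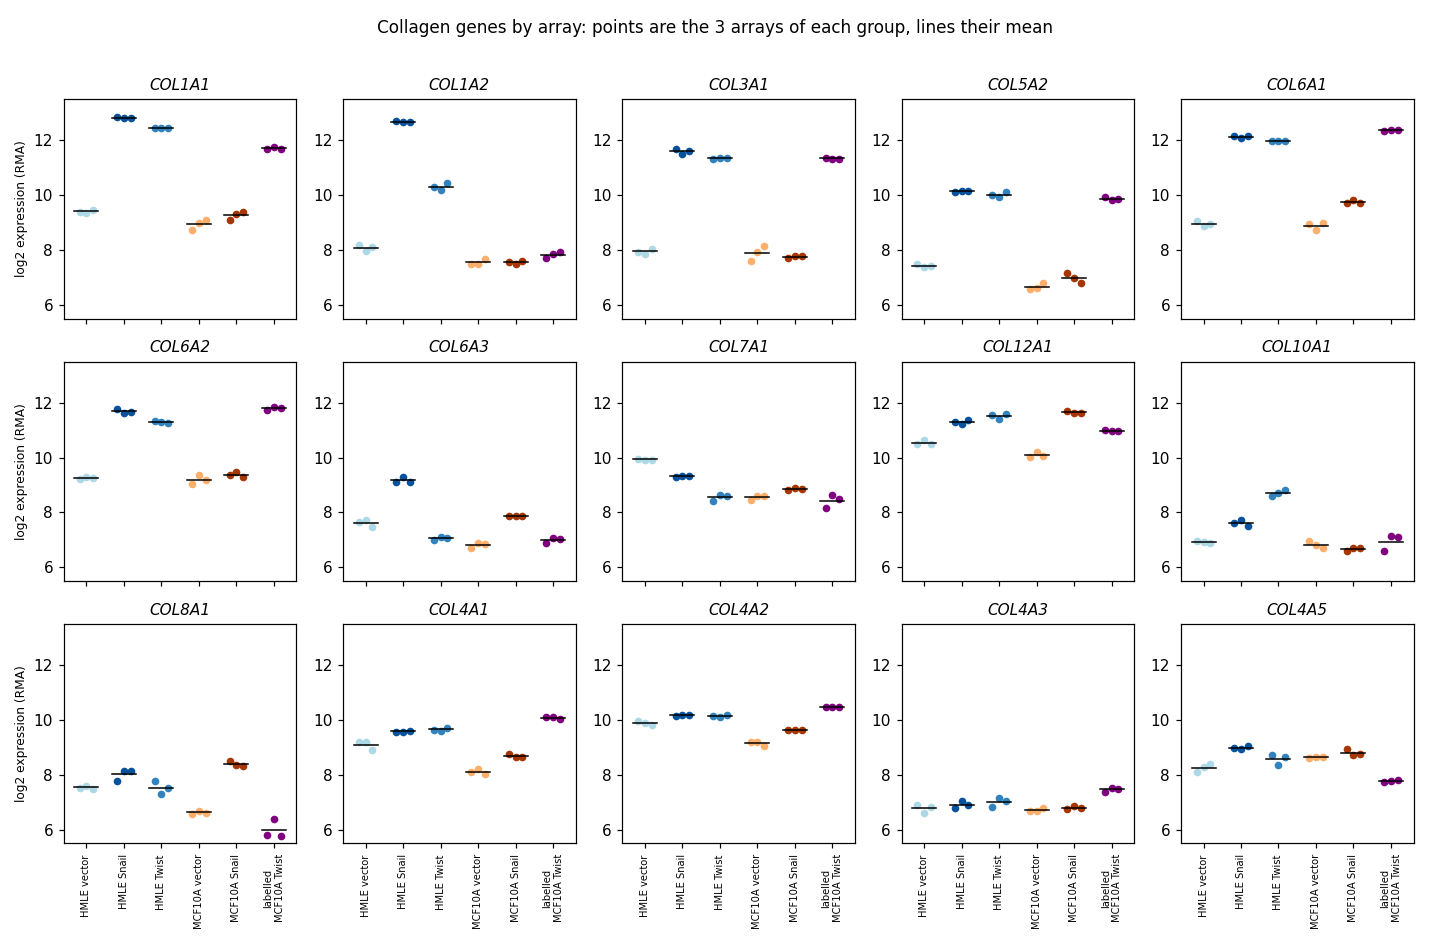
Log2 expression of 15 collagen genes in each of the 18 arrays, by group, with points for arrays and lines for group means on a common scale. COL1A1, COL3A1, COL5A2, COL6A1 and COL6A2 are high in HMLE Snail, HMLE Twist and labelled MCF10A Twist arrays, while COL1A2 in the labelled MCF10A Twist arrays stays between 7.70 and 7.92.

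Type VI collagen is assembled from chains of COL6A1, COL6A2 and a longer chain such as that of COL6A3. COL6A1 read 9.05, 8.86 and 8.94 with HMLE vector, 12.16, 12.07 and 12.14 with Snail, and 11.99, 11.97 and 11.96 with Twist. It rose by 3.17 ± 0.06 with Snail and by 3.02 ± 0.06 with Twist (adjusted p = 3.23e-16 and 4.62e-16). In MCF10A it went from 8.95, 8.73 and 8.97 to 9.71, 9.81 and 9.73 with Snail, a rise of 0.87 ± 0.06 without overlap (adjusted p = 3.45e-08). Arrays labelled MCF10A Twist, at 12.34, 12.36 and 12.37, were the highest of all, 3.47 ± 0.06 above MCF10A vector and 3.40 ± 0.06 above HMLE vector.

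COL6A2 moved with COL6A1 in the HMLE groups. It read 9.21, 9.29 and 9.26 with vector, 11.79, 11.63 and 11.68 with Snail, and 11.32, 11.30 and 11.27 with Twist, rises of 2.44 ± 0.07 and 2.04 ± 0.07 (adjusted p = 2.89e-14 and 3.24e-13). In MCF10A it read 9.02, 9.35 and 9.17 with vector and 9.36, 9.46 and 9.30 with Snail, where the groups overlapped (difference 0.19 ± 0.07, adjusted p = 0.072). That difference was called with median centring (0.22, adjusted p = 0.0397), with the filter on low values (adjusted p = 0.0363), with trend and robust variance (adjusted p = 0.0327) and without MCF10A vector replicate 2 (0.27, adjusted p = 0.01). Labelled MCF10A Twist arrays read 11.75, 11.86 and 11.81, 2.63 ± 0.07 above MCF10A vector and 2.55 ± 0.07 above HMLE vector.

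COL6A3 went another way with Twist. It read 7.64, 7.71 and 7.47 with HMLE vector and rose to 9.12, 9.28 and 9.11 with Snail (1.56 ± 0.07, adjusted p = 1.34e-11), but read 7.00, 7.11 and 7.07 with Twist, a fall (difference -0.55 ± 0.07, adjusted p = 9.32e-06). The Snail arrays exceeded the Twist arrays by 2.11 ± 0.07, or 4.30-fold (adjusted p = 1.57e-12). In MCF10A it rose with Snail from 6.72, 6.90 and 6.86 to 7.87, 7.87 and 7.86 (1.04 ± 0.07, adjusted p = 1.92e-08). The arrays labelled MCF10A Twist read 6.88, 7.08 and 7.04. They overlapped with MCF10A vector (0.17 ± 0.07, adjusted p = 0.0605) and with HMLE Twist (-0.06 ± 0.07, adjusted p = 0.601), and stood below HMLE vector (-0.61 ± 0.07, adjusted p = 2.24e-06). The difference from MCF10A vector was called with a replicate block (adjusted p = 0.0264), with array weights (0.20, adjusted p = 0.0061), with the filter on low values (adjusted p = 0.0332), and without MCF10A vector replicate 2 or labelled MCF10A Twist replicate 1 (adjusted p = 0.0444 and 0.0189). COL6A3 thus rose from vector in both Snail groups, while neither group labelled Twist rose in the reported fit. The other chains COL6A5 and COL6A6 chains were not called.

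The sequences upstream of COL6A2 and COL6A3 are shown because these partner chains moved in opposite directions with Twist in HMLE. Each is the 250 bases before the annotated gene start in RefSeq, build GRCh38.p14, read 5′ to 3′ on the strand of the gene, COL6A2 at chr21:46097862-46098111 on the plus strand and COL6A3 at chr2:237414165-237414414 on the minus strand. Capitals mark the TATA-like word TATAA, the CCAAT box and the E-box CANNTG, searched on both strands.
COL6A2: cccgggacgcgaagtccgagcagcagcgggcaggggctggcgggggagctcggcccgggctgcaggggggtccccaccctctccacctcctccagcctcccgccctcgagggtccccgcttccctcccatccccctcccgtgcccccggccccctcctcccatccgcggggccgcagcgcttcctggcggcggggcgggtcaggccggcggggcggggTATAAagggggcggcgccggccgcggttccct
COL6A3: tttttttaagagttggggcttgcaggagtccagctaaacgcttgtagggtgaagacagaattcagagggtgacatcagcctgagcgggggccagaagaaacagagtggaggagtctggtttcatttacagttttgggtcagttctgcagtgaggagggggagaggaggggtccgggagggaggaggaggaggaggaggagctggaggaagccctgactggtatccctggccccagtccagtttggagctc
TATAA begins at base 219 of the COL6A2 stretch, and COL6A3 holds none of the 3 words in this window.

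**Figure D3:**
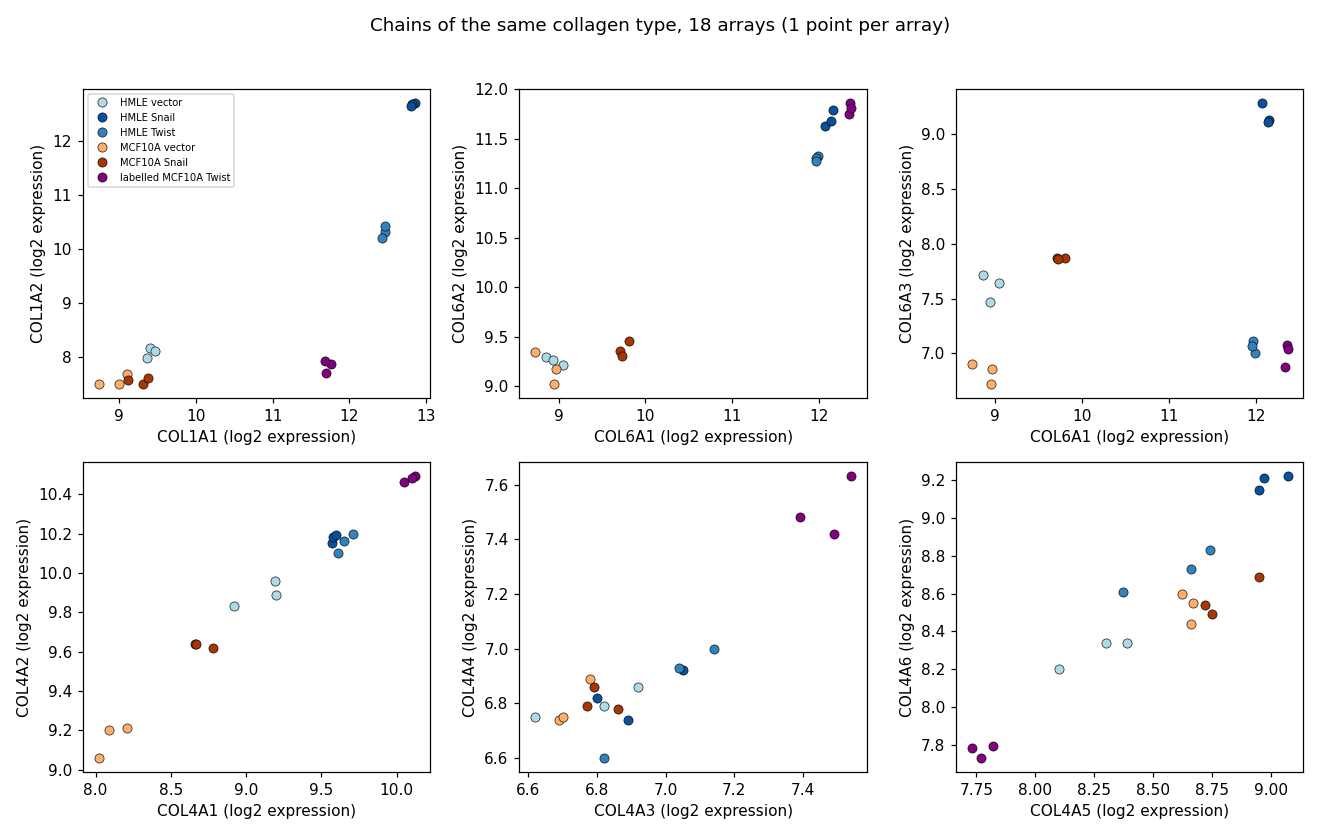
Log2 expression of collagen chains of the same type plotted against each other, 1 point per array, coloured by group. COL1A2 and COL6A3 leave their partners in some groups (COL6A3 lies near 7 in both groups labelled Twist although COL6A1 is near 12), while in the lower row the labelled MCF10A Twist arrays are highest for COL4A1 with COL4A2 and COL4A3 with COL4A4, and lowest for COL4A5 with COL4A6.

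Type IV collagen has 6 chain genes, arranged as 3 head-to-head pairs whose starts lie close together and point away from each other. COL4A1 and COL4A2 encode the chains of the common basement membrane network, COL4A3 and COL4A4 chains of the kidney glomerular network together with COL4A5, and COL4A5 and COL4A6 those of a network found under skin and around smooth muscle. The starts are 126 bases apart for COL4A1 and COL4A2, 418 for COL4A3 and COL4A4, and 379 for COL4A5 and COL4A6 in GRCh38.p14. COL4A6 has 2 annotated starts, and the one nearer to COL4A5 was used for this distance and for the sequence below. The stretch that lies within 250 bases upstream of both genes of a pair is shown because in the labelled MCF10A Twist arrays both members of a pair lay on the same side of vector, on the plus strand and with capitals as above. The coordinates are chr13:110307158-110307283, chr2:227164374-227164455 and chrX:108439588-108439708.
COL4A1 and COL4A2: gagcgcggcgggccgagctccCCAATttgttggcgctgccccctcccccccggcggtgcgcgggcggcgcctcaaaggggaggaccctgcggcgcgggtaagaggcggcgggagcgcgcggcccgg
COL4A3 and COL4A4: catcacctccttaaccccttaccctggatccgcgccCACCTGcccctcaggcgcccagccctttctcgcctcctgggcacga
COL4A5 and COL4A6: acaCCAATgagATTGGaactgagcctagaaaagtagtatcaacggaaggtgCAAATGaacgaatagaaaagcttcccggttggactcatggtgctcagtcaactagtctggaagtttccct
A CCAAT box (CCAAT, or ATTGG on the other strand) lies in the COL4A1 and COL4A5 stretches. The E-box CACCTG, the form Snail proteins are known to bind, lies in the COL4A3 stretch, and the E-box CAAATG in the COL4A5 stretch.

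COL4A1 rose in all 4 comparisons with vector. It read 9.19, 9.20 and 8.92 with HMLE vector, 9.57, 9.58 and 9.60 with Snail, and 9.65, 9.61 and 9.71 with Twist, rises of 0.48 ± 0.07 and 0.55 ± 0.07 (adjusted p = 2e-05 and 4.65e-06). In MCF10A it went from 8.09, 8.21 and 8.02 to 8.78, 8.66 and 8.67 with Snail (0.60 ± 0.07, adjusted p = 7.89e-06). Arrays labelled MCF10A Twist read 10.12, 10.10 and 10.05, above every other group, 1.98 ± 0.07 above MCF10A vector and 0.99 ± 0.07 above HMLE vector (adjusted p = 2.6e-13 and 2.96e-09).

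COL4A2 followed with smaller differences. It read 9.96, 9.89 and 9.83 with HMLE vector, 10.15, 10.18 and 10.19 with Snail, and 10.16, 10.10 and 10.20 with Twist, rises of 0.28 ± 0.05 and 0.26 ± 0.05 (adjusted p = 0.000189 and 0.000407). In MCF10A it went from 9.20, 9.21 and 9.06 to 9.62, 9.64 and 9.64 (0.48 ± 0.05, adjusted p = 2.71e-06). The labelled MCF10A Twist arrays, at 10.49, 10.48 and 10.46, stood 1.32 ± 0.05 above MCF10A vector and 0.59 ± 0.05 above HMLE vector. For both genes no group compared with its vector overlapped it.

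The other type IV pairs stood apart in the arrays labelled MCF10A Twist. There COL4A3 read 7.39, 7.54 and 7.49 and COL4A4 read 7.48, 7.63 and 7.42, above all other arrays, whose group means lay between 6.73 and 7.00. Against MCF10A vector they were higher by 0.75 ± 0.09 and 0.72 ± 0.09, and against HMLE vector by 0.69 ± 0.09 and 0.71 ± 0.09 (adjusted p between 1.59e-06 and 4.49e-06). Neither was called with Snail in either line or with Twist in HMLE, where COL4A3 differed by 0.22 ± 0.09 (adjusted p = 0.0581). That last value was called with quantile normalization (adjusted p = 0.00363), median centring (adjusted p = 0.032) and array weights (adjusted p = 0.002), and without replicate 1 of either group (adjusted p = 0.0251 and 0.00842).

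COL4A5 read 7.73, 7.77 and 7.82 in the arrays labelled MCF10A Twist, the lowest of the 6 groups, and COL4A6 read 7.78, 7.73 and 7.79, likewise the lowest. They lay below MCF10A vector by -0.87 ± 0.09 and -0.76 ± 0.07, and below HMLE vector by -0.49 ± 0.09 and -0.53 ± 0.07 (adjusted p between 5.9e-08 and 0.000206). With Snail in HMLE COL4A5 rose from 8.10, 8.30 and 8.39 to 8.97, 8.95 and 9.07 (0.73 ± 0.09), and COL4A6 from 8.20, 8.34 and 8.34 to 9.21, 9.15 and 9.22 (0.90 ± 0.07). With Twist in HMLE the rises were 0.33 ± 0.09 and 0.43 ± 0.07, and COL4A5 at 8.74, 8.37 and 8.66 overlapped with vector. That COL4A5 call was lost when only the compared groups were fitted (adjusted p = 0.0582). In MCF10A with Snail neither was called (0.16 ± 0.09 and 0.05 ± 0.07, adjusted p = 0.253 and 0.731). The groups labelled Twist therefore went in opposite directions from their vector arrays for this pair, and differed from each other directly by -0.82 ± 0.09 and -0.96 ± 0.07 (labelled MCF10A Twist against HMLE Twist, adjusted p = 1.64e-06 and 1.05e-08).

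Among the other network collagens COL10A1 and COL8A1 were called. COL10A1, known as the collagen of hypertrophic cartilage, read 6.94, 6.91 and 6.87 with HMLE vector, 7.63, 7.72 and 7.50 with Snail, and 8.61, 8.70 and 8.82 with Twist. The groups did not overlap, with rises of 0.71 ± 0.12 with Snail and 1.80 ± 0.12 with Twist (adjusted p = 5.69e-05 and 9.08e-10), and Twist exceeded Snail (Snail minus Twist -1.09 ± 0.12, adjusted p = 1.31e-06). In MCF10A it was not called with Snail (-0.15 ± 0.12, adjusted p = 0.437). In the arrays labelled MCF10A Twist it read 6.58, 7.14 and 7.09, overlapping with MCF10A vector (0.11 ± 0.12, adjusted p = 0.499). That difference was called with array weights (0.24, adjusted p = 0.0145) and without labelled MCF10A Twist replicate 1, the lowest array (0.29, adjusted p = 0.0107).

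COL8A1, a short network-forming collagen of vessel walls and the cornea, showed the largest collagen rise with Snail in MCF10A. It went from 6.59, 6.70 and 6.60 to 8.49, 8.36 and 8.31, a rise of 1.76 ± 0.15, or 3.38-fold (adjusted p = 1.28e-07). In HMLE it read 7.54, 7.61 and 7.50 with vector and 7.78, 8.14 and 8.13 with Snail (0.47 ± 0.15, adjusted p = 0.0131), a call lost without Snail replicate 2 or 3 (adjusted p = 0.0578 and 0.0551). With Twist in HMLE it spread over 7.78, 7.30 and 7.54 around the vector values (0.00 ± 0.15, adjusted p = 0.985). The arrays labelled MCF10A Twist read 5.82, 6.41 and 5.79, below MCF10A vector (-0.62 ± 0.15, adjusted p = 0.00155) and further below HMLE vector (-1.54 ± 0.15, adjusted p = 1.03e-07). Its partner COL8A2 was not called, with group means between 8.03 and 8.12.

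COL7A1 encodes the anchoring fibrils that fasten the basement membrane of stratified epithelia. It was the only collagen to fall at least 2-fold in a comparison with the vector of its labelled line. It read 9.94, 9.93 and 9.93 with HMLE vector, 9.31, 9.32 and 9.32 with Snail, and 8.43, 8.62 and 8.61 with Twist. The differences were -0.62 ± 0.09 with Snail and -1.38 ± 0.09 with Twist (adjusted p = 1.18e-05 and 6.37e-10), with no overlap among the 3 groups, and the Snail arrays exceeded the Twist arrays by 0.76 ± 0.09 (adjusted p = 2.62e-06). MCF10A vector, at 8.47, 8.59 and 8.61, already lay below HMLE vector by 1.38 ± 0.09 (HMLE minus MCF10A, adjusted p = 8.78e-10). With Snail in MCF10A it read 8.81, 8.89 and 8.85, a rise of 0.29 ± 0.09 (adjusted p = 0.0206) that was lost without MCF10A vector replicate 1 (adjusted p = 0.0923), MCF10A Snail replicate 2 (adjusted p = 0.0672) or MCF10A Snail replicate 3 (adjusted p = 0.0549). Arrays labelled MCF10A Twist, at 8.17, 8.62 and 8.50, overlapped with MCF10A vector (-0.13 ± 0.09, adjusted p = 0.264). Without labelled MCF10A Twist replicate 2 that difference was called (-0.22, adjusted p = 0.0451). Against HMLE vector the same arrays were lower without overlap, by more than 2-fold (-1.50 ± 0.09, adjusted p = 1.75e-10).

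The 250 bases upstream of COL7A1, on the minus strand of chr3:48595330-48595579 in GRCh38.p14, are shown because this gene fell with both Snail and Twist in HMLE.
COL7A1: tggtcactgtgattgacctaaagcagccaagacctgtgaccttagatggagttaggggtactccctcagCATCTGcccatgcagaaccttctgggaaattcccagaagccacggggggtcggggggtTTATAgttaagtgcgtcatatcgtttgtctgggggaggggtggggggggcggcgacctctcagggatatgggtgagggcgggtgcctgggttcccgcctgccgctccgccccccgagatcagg
It holds the E-box CATCTG and the word TTATA (which reads TATAA on the other strand), and no CCAAT box. Over the family, RefSeq promoter windows of 300 bases (250 before to 50 after the start) were found for 31 of the 43 genes, 43 windows in all since some genes have several starts. The E-box CAGGTG, or CACCTG on the other strand, occurred in 5 of these 43 windows (11.6%), against 20.6% of all 35116 windows. The 5 windows belong to COL16A1, COL8A2, COL9A2, COL4A3 and COL4A4. The COL4A3 and COL4A4 matches are the same site, the CACCTG in their shared stretch shown above, which is counted for each gene. Any E-box CANNTG, which includes that form, occurred in 55.8% against 68.7%, CCAAT in 30.2% against 34.6%, and TATAA in 18.6% against 20.4%. Not matched were COL1A1, COL1A2, COL2A1, COL3A1, COL5A2, COL6A1, COL6A5, COL8A1, COL9A3, COL14A1, COL20A1 and COL22A1.

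Among the FACITs, COL12A1, which coats type I fibrils, changed most. It read 10.48, 10.63 and 10.49 with HMLE vector, 11.28, 11.24 and 11.37 with Snail, and 11.55, 11.41 and 11.60 with Twist, rises of 0.77 ± 0.06 and 0.99 ± 0.06 (adjusted p = 2.66e-08 and 1.21e-09). In MCF10A it went from 10.02, 10.19 and 10.04 to 11.69, 11.63 and 11.63 with Snail, a rise of 1.57 ± 0.06 or 2.97-fold (adjusted p = 2.46e-11). The labelled MCF10A Twist arrays, at 11.02, 10.97 and 10.97, lay 0.90 ± 0.06 above MCF10A vector and 0.45 ± 0.06 above HMLE vector. MCF10A Snail arrays thus held the highest COL12A1 values of the 6 groups.

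Smaller FACIT and transmembrane changes followed. COL14A1, a FACIT of skin and tendon, rose by 0.26 ± 0.09 with Snail and by 0.46 ± 0.09 with Twist in HMLE (adjusted p = 0.0264 and 0.000395), and the Snail arrays overlapped with vector. The Snail call was lost when only the compared groups were fitted (adjusted p = 0.0765) and without HMLE vector replicate 2 or 3 or HMLE Snail replicate 2 (adjusted p = 0.103, 0.0719 and 0.179). In the labelled MCF10A Twist arrays COL14A1 was higher than in MCF10A vector by 0.29 (adjusted p = 0.0109). That call was lost without labelled MCF10A Twist replicate 1 (0.25, adjusted p = 0.0519). COL16A1, another FACIT, fell with Twist in HMLE (-0.38 ± 0.11, adjusted p = 0.0103), a call lost without HMLE Twist replicate 1 (-0.27, adjusted p = 0.0605). COL13A1, a transmembrane collagen of cell adhesion sites, rose with Twist in HMLE from a mean of 7.89 ± 0.18 to 8.33 ± 0.12 (0.44 ± 0.09, adjusted p = 0.000467), and COL28A1, a collagen of peripheral nerve, rose with Snail in HMLE by 0.39 ± 0.10 (adjusted p = 0.00426).

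Whether Snail acted alike on collagens in both lines was tested as the difference of its effects. For 15 of the 43 collagens the effects differed, with 10 higher in HMLE and 5 higher in MCF10A. The 5 were 3 without HMLE vector replicate 1, without any single HMLE Snail array, or without MCF10A Snail replicate 2 or 3, where COL27A1 (-0.37 ± 0.13, adjusted p = 0.0341) and COL4A2 were lost. By the same rule 40.2% of all genes differed. Of all genes 19.9% had the higher effect in HMLE and 20.2% in MCF10A, against 23.3% and 11.6% of the collagens, so the first share lay near the background. Among them 6 exceeded 2-fold in favour of HMLE, or 14% against 4.58%, and 1 in favour of MCF10A, against 4.04% of all genes. The 6 were COL1A2 (4.59 ± 0.11), COL3A1 (3.79 ± 0.14), COL1A1 (3.08 ± 0.11), COL5A2 (2.41 ± 0.11), COL6A1 (2.31 ± 0.09) and COL6A2 (2.25 ± 0.10), all at an adjusted p of 3.81e-11 or lower. The genes that rose more in MCF10A included COL8A1 (-1.29 ± 0.21, adjusted p = 7.25e-05) and COL12A1 (-0.80 ± 0.09, adjusted p = 1.89e-06). COL7A1 fell in HMLE and rose in MCF10A (-0.91 ± 0.12, adjusted p = 1.19e-05). COL4A1 differed by -0.12 ± 0.10 (adjusted p = 0.402), and the COL4A2 call (-0.20 ± 0.07, adjusted p = 0.0385) was lost in a fit without the arrays labelled MCF10A Twist (adjusted p = 0.0565). It was also lost without HMLE vector replicate 1 or 2, MCF10A vector replicate 3 or any single Snail array of either line (adjusted p from 0.0523 to 0.115). COL6A3 rose in both lines, by 0.52 ± 0.10 more in HMLE (adjusted p = 0.000663).

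**Figure D4:**
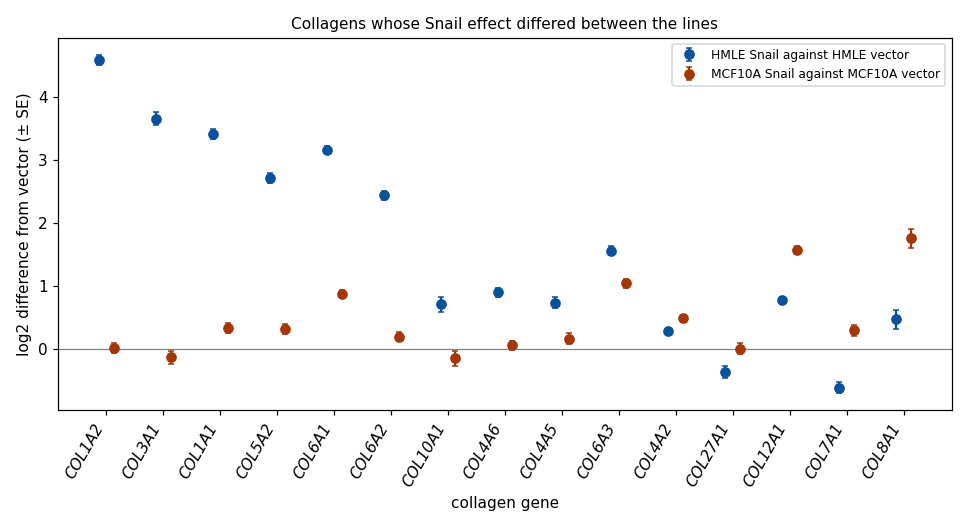
Log2 difference of Snail from vector (± SE, 3 arrays per group) in HMLE and MCF10A for the 15 collagens whose Snail effects differed between the lines, ordered by the difference. COL1A2, at 4.60 in HMLE and 0.01 in MCF10A, is at the left, and COL8A1, at 0.47 and 1.76, at the right.

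Snail and Twist were compared directly in HMLE. There 9 collagens were higher with Snail and 4 with Twist, or 20.9% and 9.30%, where 14.3% and 17.9% of all genes passed, 32.1% in all. The 9 were 7 without HMLE Snail replicate 2, where COL5A1 and COL8A1 were lost (adjusted p = 0.152 and 0.0784). COL5A1 was also lost without HMLE Snail replicate 1 and without HMLE Twist replicate 1 or 3 (adjusted p = 0.107, 0.15 and 0.112). COL8A1 was lost too without HMLE Snail replicate 3 or HMLE Twist replicate 2 (adjusted p = 0.0764 and 0.095). The 4 were 2 without HMLE Twist replicate 3, where COL12A1 and COL27A1 were lost (adjusted p = 0.0771 and 0.0884). At least 2-fold higher with Snail were COL1A2 and COL6A3, and at least 2-fold higher with Twist was COL10A1. These are 4.65% against a background of 1.8% and 1 gene against 1.02%. COL6A2, COL4A5 and COL4A6 were also higher with Snail, by 0.40 ± 0.07, 0.40 ± 0.09 and 0.47 ± 0.07. COL3A1, COL5A2, COL6A1 and COL4A1 were not called, with differences of 0.25 ± 0.10, 0.13 ± 0.08, 0.15 ± 0.06 and -0.07 ± 0.07. COL3A1 and COL6A1 were called under several other settings, such as array weights (adjusted p = 0.00152 and 0.00153).

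With control vector alone, some collagens differed between the lines. HMLE vector arrays exceeded MCF10A vector arrays for 12 collagens and lay below for 3, or 27.9% and 6.98%, against 23.4% and 20.6% of all genes. The share higher in HMLE thus lay near the background, and 34.9% of the collagens were called in all, against 44% of all genes. Without MCF10A vector replicate 1 the 3 were 1. The only 2-fold difference was COL7A1, which is 2.33% against a background of 3.32%, while 3.03% of all genes were 2-fold lower in HMLE. COL4A1 at 1.00 ± 0.07 lay at that limit without passing it. COL8A1 was higher in HMLE by 0.92 ± 0.15, COL6A3 by 0.78 ± 0.07, COL5A2 by 0.77 ± 0.08 and COL4A2 by 0.73 ± 0.05. COL4A5, COL4A6 and COL28A1 were higher in MCF10A (-0.38 ± 0.09, -0.24 ± 0.07 and -0.33 ± 0.10). The COL4A6 call was lost without replicate 1 of HMLE vector or of MCF10A vector (adjusted p = 0.0604 and 0.0514), and the COL28A1 call without HMLE vector replicate 2 or MCF10A vector replicate 1 (adjusted p = 0.0731 and 0.0555).

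The arrays labelled MCF10A Twist were also set against HMLE Twist, which carries the same factor label. There 7 collagens were higher in the labelled MCF10A Twist arrays and 8 lower, or 16.3% and 18.6%, against 17.4% and 18.8% of all genes and 36.2% in all, so both shares lay near the background. The differences past 2-fold were COL1A2, COL10A1 (-1.77 ± 0.12, adjusted p = 2.91e-09) and COL8A1 (-1.54 ± 0.15, adjusted p = 2.62e-07), all lower, against 2.03% of all genes. None was 2-fold higher, where 1.37% of all genes were. COL1A1 was lower too (-0.74 ± 0.08, adjusted p = 1.48e-06), while COL6A1 and COL6A2 were higher (0.38 ± 0.06 and 0.51 ± 0.07). These values come from the fit without pairing. With the replicate number as a block common to all 6 groups, COL28A1 was no longer called (adjusted p = 0.0587) and COL27A1 was (-0.23, adjusted p = 0.0366). A block for these 2 groups alone was not fitted.

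The enzymes and receptors that make, process and bind collagen were described from a list of 45 genes, of which 43 were measured. With Snail in HMLE 27 rose and 9 fell (median 0.36 against -0.01 for all genes), with Twist 22 and 9 (0.16 against 0.02), and with Snail in MCF10A 15 and 5 (0.05 against -0.02). In the labelled MCF10A Twist arrays 25 rose and 8 fell against MCF10A vector (0.28 against 0.03). As background for these counts and those by role, 22.9% of all genes rose and 24.8% fell with Snail in HMLE. With Twist in HMLE the shares were 23% and 20.7%, and with Snail in MCF10A 10.7% and 12%. In the labelled MCF10A Twist arrays against MCF10A vector they were 26.5% and 23.9%.

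Of 16 synthesis genes, which hydroxylate and fold the chains, 13 rose and 2 fell with Snail in HMLE, led by the prolyl hydroxylase genes P4HA3 (1.83 ± 0.07) and P3H3 (1.57 ± 0.06), while P3H2 fell (-1.43 ± 0.07). With Twist 10 rose and 1 fell, and with Snail in MCF10A 7 rose and 1 fell, led by the lysyl hydroxylase PLOD2 (0.67 ± 0.06). Of 8 processing genes, PCOLCE, which enhances removal of the procollagen C-terminal propeptide, rose by 4.48 ± 0.07 with Snail and 3.78 ± 0.07 with Twist in HMLE and stood 4.59 ± 0.07 above MCF10A vector in the labelled MCF10A Twist arrays. The propeptide protease TLL1 fell in the HMLE comparisons (-2.80 ± 0.12 and -3.64 ± 0.12) and rose with Snail in MCF10A (0.54 ± 0.12). PCOLCE differed by 0.08 ± 0.07 with Snail in MCF10A (adjusted p = 0.475). Adjusted p-values of the other related genes named here were between 3.19e-18 and 0.00309 (limma).

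Of 5 crosslinking genes, 3 rose and 1 fell in each HMLE comparison with vector. The lysyl oxidases LOX and LOXL2 rose by 2.98 ± 0.06 and 2.03 ± 0.07 with Snail and by 4.24 ± 0.06 and 2.49 ± 0.07 with Twist, and in MCF10A with Snail LOXL2 alone of the 5 was called (0.41 ± 0.07). Among 6 receptors, the fibrillar collagen receptor DDR2 rose by 3.90 ± 0.07 and 4.59 ± 0.07 in HMLE with Snail and Twist and by 0.32 ± 0.07 with Snail in MCF10A, while DDR1, its relative in epithelia, fell (-1.33 ± 0.06, -2.05 ± 0.06 and -0.64 ± 0.06). The integrin chain ITGA10 rose by 2.83 ± 0.08 with Snail in HMLE and fell with Snail in MCF10A (-0.41 ± 0.08). Of 8 degradation genes 3 rose and 2 fell with Snail in HMLE, or 37.5% and 25%, against 22.9% and 24.8% of all genes. The share that fell lay near the background. The gelatinase MMP2 differed by 2.98 ± 0.06 and MMP9 by -2.91 ± 0.13. The collagenase MMP1 stood 4.33 ± 0.12 above MCF10A vector in the labelled MCF10A Twist arrays. Its mean there was 11.23 ± 0.12, with 6.90 ± 0.19 in MCF10A vector and 8.16 ± 0.10 in HMLE vector, so the difference was smaller against HMLE vector.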

How the data were processed

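Expression was measured in 18 samples on Affymetrix Human Gene 1.0 ST arrays. The authors deposited log2 values for 33297 probe sets. RMA is named in the submitters' processing notes; that method corrects background, equalises the arrays' distributions and summarises probes, and understates changes of dim genes. Neither an RMA version nor a build is given in the sources used here, and the range of the values shows the log2 scale. Groups came from the sample titles. Of the probe sets 19460 had 1 gene symbol, 1754 had several and 12083 were not listed in the platform annotation; symbols were updated through gene IDs for 19429, and the brightest probe set stood for each of 18417 genes. COL11A2 has 3 probe sets and every other collagen 1. The collagens and all lists were chosen with earlier results of these data known.

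The limma package (3.58.1, R 4.3.3) fitted a mean for each of 6 groups (all arrays in the fit, 12 residual degrees of freedom), and p-values were adjusted by the Benjamini-Hochberg method over all genes in each of 9 comparisons. A call is an adjusted p under 0.05, counted again with a log2 difference of at least 1, which is 2-fold. Array values are given, for most groups, for members past 2-fold in a comparison with vector whose groups did not overlap. Their partner chains are treated alike, except that COL5A1 and COL8A2 are given as group means. COL4A3, COL4A4, COL4A5 and COL4A6 did not pass 2-fold against the vector of the labelled line, but array values of some groups are given for these type IV pairs. Other members are summarised. Of the 45 related genes up to 3 per role were named. Precision is limited by having 3 arrays a group. No scan date or batch is labelled. Replicate numbers were taken to pair the HMLE Twist and labelled MCF10A Twist arrays, since deviations from group means correlated at 0.64, 0.54 and 0.13 for the numbers 1 to 3; no other pair of groups compared directly here reached 0.1 for all numbers. Alternatives were quantile normalization, median centring, averaged probe sets, leaving out dim genes (filter on low values), array weights, trend and robust variance, only the compared groups, a replicate block, an adjusted p under 0.01, each array left out, and, chosen after seeing the data, a fit without the arrays labelled MCF10A Twist. In simulated data for HMLE Snail against vector over 18417 genes, 80% of 50 genes changed by 0.5 and 100% of 50 changed by 1 were called. Only 200 genes were changed there, while 47.7% of all genes were called in the real comparison. Since the adjustment of p-values depends on that share, these percentages need not hold for the real data. Promoter windows came from RefSeq (GRCh38.p14).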

Additional observations from a re-analysis of the deposited data

Results flagged for a closer look

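The Snail effect differed between HMLE and MCF10A for 7 collagens at a limma adjusted p under 0.05 with an estimate of at least 2-fold. Of these 6 were higher in HMLE, or 14% of the collagens against 4.58% of all genes, and 1 was higher in MCF10A, against 4.04%. The test was against no difference, and the 2-fold limit was set on the estimate. In log2 units, HMLE minus MCF10A, the differences were 3.08 for COL1A1, 4.59 for COL1A2, 3.79 for COL3A1, 2.41 for COL5A2, 2.31 for COL6A1, 2.25 for COL6A2 and -1.29 for COL8A1. Groups of 3 arrays were not tested for outlying arrays.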

How the results depend on the processing

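The total counts of called collagens stayed within 1.5 times the reported counts in all 9 comparisons under every alternative, except with array weights. There Snail against Twist in HMLE gave 23 calls in place of 13, and labelled MCF10A Twist against HMLE Twist gave 23 in place of 15. Calls over all 18417 genes went up as well with array weights, to 11184 in place of 5921 and to 12356 in place of 6660. The weight estimation stopped before reaching its convergence tolerance. No member called under both the reported and an alternative setting switched direction in 147 settings and comparisons. With each array left out, the counts ran from 16 to 18 for HMLE Snail, 17 to 19 for HMLE Twist, 8 to 10 for MCF10A Snail and 16 to 19 for the labelled MCF10A Twist arrays against vector, from 10 to 12 for Snail against Twist in HMLE, and from 13 to 15 for the difference of Snail effects. With a replicate block the counts against vector were 18, 17, 9 and 17, against 18, 17, 9 and 16 without it, and 15 for labelled MCF10A Twist against HMLE Twist either way. A fit without the arrays labelled MCF10A Twist gave 18, 17 and 9 calls against vector and 14 in place of 15 for the difference of Snail effects, where COL4A2 was lost. Widening the promoter word from CAGGTG to any CANNTG moved the share of collagen windows that hold it from 11.6% to 55.8%. Dim members limit what can be seen: 24 of 43 were under the median of all gene values in every group.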

Other observations

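A further probe set is annotated to both PNLIP, a pancreatic lipase, and COL1A2, and was not used for either gene. It read between 4.73 and 5.26 over all 18 arrays, and did not follow the COL1A2 probe set, which reached 12.71 in an HMLE Snail array. The other COL11A2 probe sets, annotated like the one used, held identical values to each other in every array, between 6.90 and 7.58.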
